A study of Mus musculus with 18 samples.

Results

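The comparison of 12 E10.5 libraries, of 18 in the series, asked whether the effect of the Del(i9-13) mutation on gene expression differed between embryos with and without the Hoxb13hd allele. All E10.5 libraries were taken, 3 for each of 4 groups: Del(i9-13), wild type, Del(i9-13):Hoxb13hd and Hoxb13hd. They form a 2 by 2 layout, in which the difference between Del(i9-13) and wild type was set against the difference between Del(i9-13):Hoxb13hd and Hoxb13hd. The subtraction of the second difference from the first is called the interaction here, on the log2 scale, and a positive value means that the deletion effect was higher without hd. Of 17202 genes tested, 90 (0.523%) were called in the interaction, 43 of them higher (0.25%) and 47 lower (0.273%), at an adjusted p of 0.05 or less.

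RNA came from whole embryos without the head, from mutants and wild type littermates, per the labels, and the mutants of all 3 genotypes were homozygous. Del(i9-13) is taken here to remove sequence from the stretch that separates Hoxb9 from Hoxb13, and the sources used here do not say what hd means. Neither a strain nor an age beyond E10.5 is in the labels used here, and they do not say whether a replicate is 1 embryo or a pool, so p-values reflect no more than how far these libraries vary, which may be technical. In such bulk samples, fewer cells of a type and less RNA per cell cannot be told apart. The 2 deletion effects share no library, but every group enters the interaction, so an unusual level in any single group can produce a call.

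As background, Hox genes give cells their position along the body axis, and the genes of a cluster switch on in the order in which they lie on the chromosome. Hoxb13 lies at the 5′ end of HoxB, far from its neighbour Hoxb9, and the paralogous group 13 genes act late, when the tail is laid down. In the mouse the tail grows from progenitors in the tail bud, which depend on Wnt and Fgf signals, brachyury and Cdx factors. CTCF, named in the series title, binds DNA and limits contacts between neighbouring stretches of chromatin.

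Library totals ran from 19.3 to 25.7 M counts. Xist was high in 6 libraries and Y-linked genes in the other 6, with both kinds in every group. Summed levels of 26 tail bud genes were 776 to 912 CPM (read counts relative to TMM-adjusted library size) in Del(i9-13), 874 to 1070 CPM in wild type, 961 to 970 CPM in Del(i9-13):Hoxb13hd and 1220 to 1410 CPM in Hoxb13hd. Summed levels of 17 liver bud and endoderm markers were 388 to 2430 CPM in Del(i9-13), 244 to 746 CPM in wild type, 345 to 431 CPM in Del(i9-13):Hoxb13hd and 56.5 to 162 CPM in Hoxb13hd. The Hoxb13hd libraries thus stood above the other 9 in tail bud genes and below them in the liver markers, and Del(i9-13) replicate 1 had the highest liver sum. The part of these sums in the calls was not tested.

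In 82 of the 90 genes (91.1%) the 2 deletion effects had opposite signs, against 8580 of all genes tested (49.9%). Calls were made on the difference between these effects, which opposite signs enlarge, so the 82 are a description. The deletion effect without hd was called for 84 genes (0.488% of those tested) and that with hd for 165 (0.959%). Of the 90, 41 were among the calls without hd, 40 among those with hd, 13 in both with opposite direction and 22 in neither. The size of the interaction had a median of 1.47 on the log2 scale and ran from 0.385 to 22.3, the highest resting on groups at or near 0, against a median of 0.00 for the signed values of all genes tested. Counts of calls turned on single libraries. Omission of Del(i9-13) replicate 1 gave 174 calls in place of 90 and omission of replicate 3 gave 50. There were 47 and 45 without wild type replicates 1 and 3, 40, 43 and 48 without Del(i9-13):Hoxb13hd replicates 1, 2 and 3, and 53 without Hoxb13hd replicate 3. DESeq2 called 287.

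**Figure D1:**
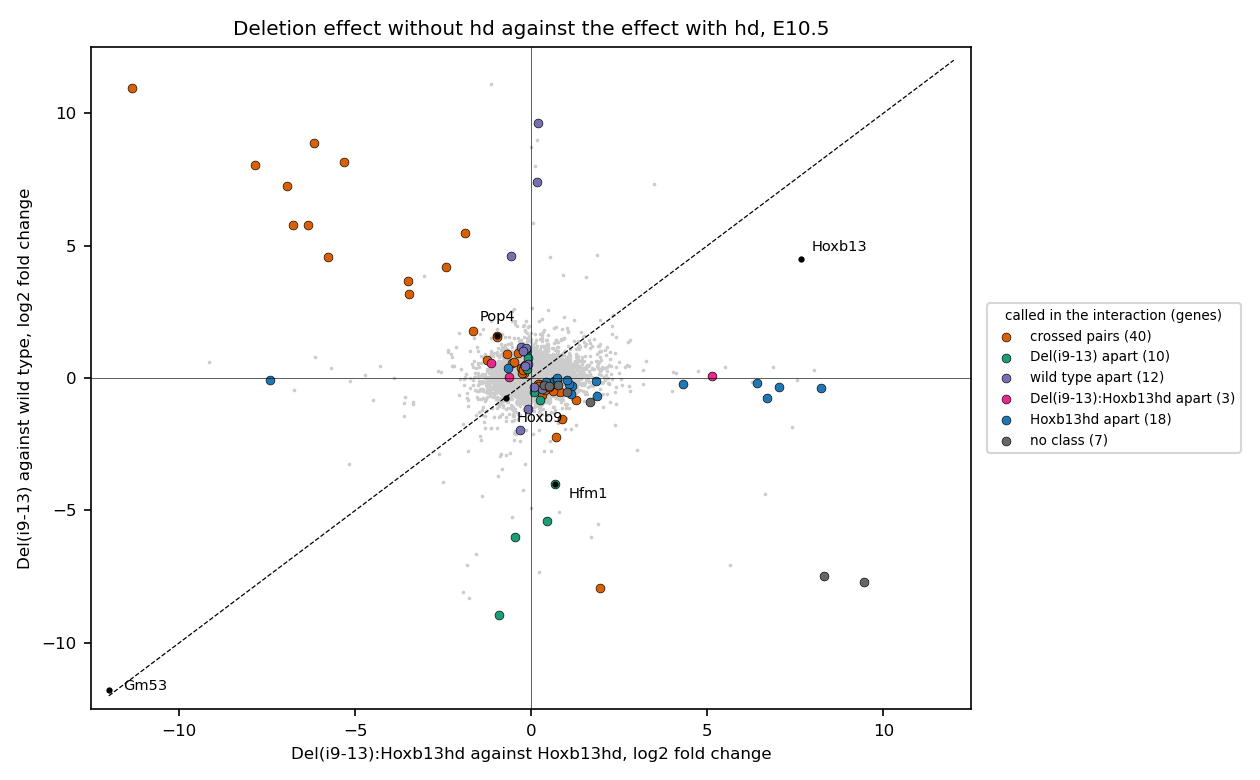
Deletion effect without hd (Del(i9-13) against wild type, y axis) plotted against the effect with hd (Del(i9-13):Hoxb13hd against Hoxb13hd, x axis), both as log2 fold changes with values beyond 12 drawn at 12. Grey points are the 17202 genes tested, coloured points the 90 called in the interaction by the group pattern that sets them, and the dashed line marks equal effects. The 40 crossed genes lie in the upper left and lower right quadrants.

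Each called gene was placed by which libraries stood apart, on log2(CPM + 0.5). In a gene set by 1 group, the 3 libraries of that group lay above or below the other 9, by more than the range of the other 3 group means. In a crossed gene, the 6 libraries of Del(i9-13) and Hoxb13hd lay all above or all below the 6 of wild type and Del(i9-13):Hoxb13hd. Crossed genes were 40 of the 90, 27 with Del(i9-13) and Hoxb13hd high (0.349% of all genes tested met that rule) and 13 with both low (0.366%). The Hoxb13hd group alone set 18 genes, 16 of them low (2.99%) and 2 high (1.58%). Wild type alone set 12, 8 low (0.61%) and 4 high (1.05%). Del(i9-13) alone set 10, 6 low (1.27%) and 4 high (0.948%). Del(i9-13):Hoxb13hd alone set 3, 2 low (1.03%) and 1 high (0.634%), and 7 genes met no rule (89.2%). A crossed order gives the highest value of this contrast for a given spread of group means, so the share of crossed genes among the calls is a description.

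**Figure D2:**
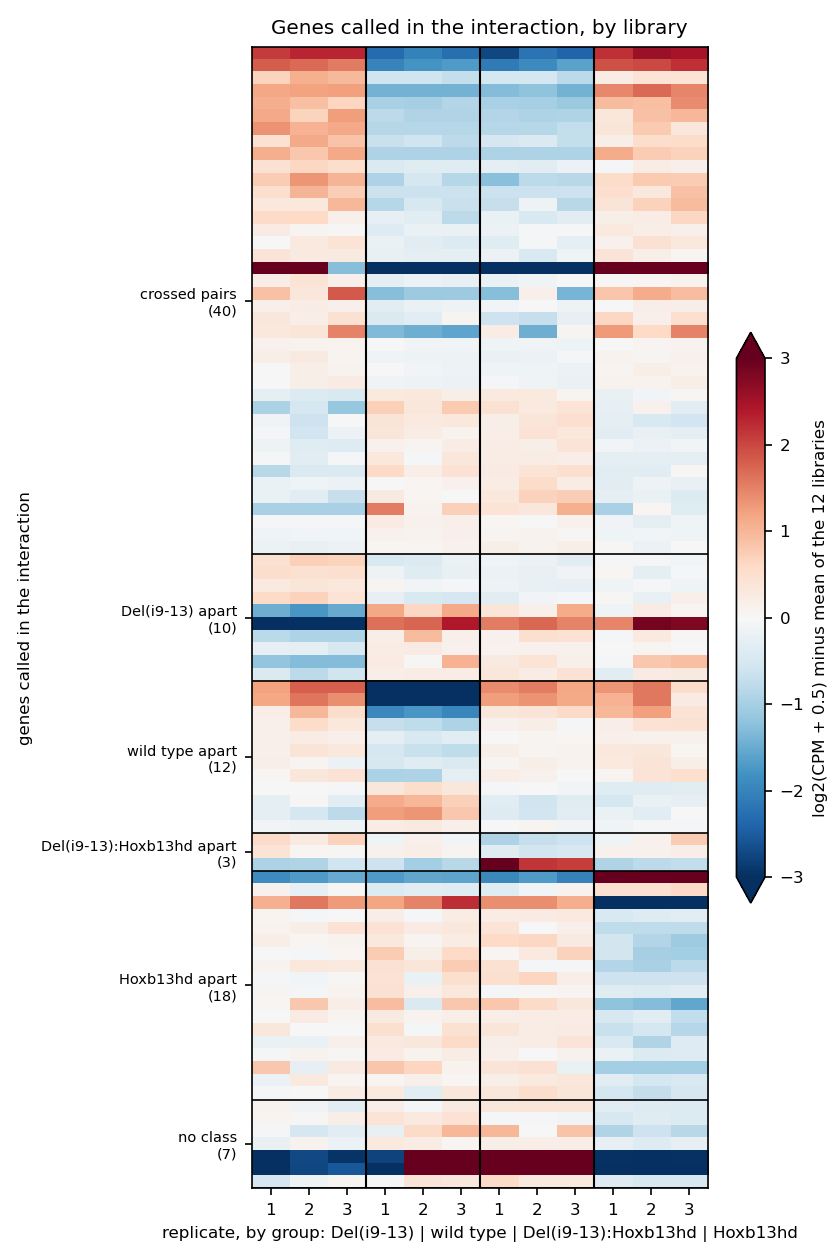
Level of each of the 90 called genes (one line each, down the page, grouped by class) in the 12 libraries (columns, by group and replicate), as log2(CPM + 0.5) minus its mean over the 12 libraries, with colours saturating at 3. Outer columns share a colour in the 40 crossed genes, and a single block of 3 columns stands apart in the 43 genes set by 1 group.

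Pop4 and H4f16 were crossed genes, high in Del(i9-13) and Hoxb13hd. Pop4 (chr7:38261996-38271423, mm10) encodes a subunit shared by RNase P and RNase MRP, the ribonucleoproteins that process tRNA and rRNA precursors. It had 75.2, 98.6 and 92.9 CPM in Del(i9-13) against 30.9, 30.6 and 28.2 CPM in wild type, and 32.3, 32.4 and 26.8 CPM in Del(i9-13):Hoxb13hd against 55.2, 62.4 and 62.6 CPM in Hoxb13hd. The libraries of wild type and Del(i9-13):Hoxb13hd had nearly the same level and lay far under the other 6, with no overlap. Its interaction was 2.55 ± 0.15 (SE; adjusted p = 1.28e-06), made of a rise without hd of 1.57 (adjusted p = 6.45e-06) and a fall with hd of -0.98 (adjusted p = 0.000818). Pop4 was the single member called of 13 genes for RNase P and RNase MRP subunits, whose median interaction was 0.15 with 11 values positive. H4f16 (chr6:136801553-136804415), a histone H4 gene, had 488, 782 and 635 CPM in Del(i9-13) against 221, 233 and 204 CPM in wild type, and 249, 261 and 216 CPM in Del(i9-13):Hoxb13hd against 401, 506 and 515 CPM in Hoxb13hd. Here too the groups did not overlap across the crossed pairs. The interaction of H4f16 was 2.5 ± 0.21 (SE; adjusted p = 6.85e-05), and since histone H4 genes are alike in sequence its counts are uncertain. The closest protein-coding transcript of another gene matched 11.9% of the H4f16 transcript, at 91.5% identity.

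Bcl2l12 and Pold1 lie near each other on chromosome 7. Bcl2l12 (chr7:44991222-44997579), a relative of the Bcl2 family of apoptosis regulators, had 28.6, 32.5 and 30.3 CPM in Del(i9-13) against 15.4, 16 and 16.2 CPM in wild type, and 16.8, 16.4 and 18.5 CPM in Del(i9-13):Hoxb13hd against 20.2, 24.3 and 23.2 CPM in Hoxb13hd. Del(i9-13) was highest, Hoxb13hd came between, and the other groups were alike. Its interaction was 1.33 ± 0.13 (SE; adjusted p = 0.000139), with a rise without hd of 0.94 (adjusted p = 0.000179), whereas the effect with hd was -0.39 (adjusted p = 0.0606) and missed the threshold. Pold1, the catalytic subunit of DNA polymerase delta, had 133, 120.1 and 116 CPM in Del(i9-13) against 86, 97.8 and 98.6 CPM in wild type, and 99.5, 110.2 and 109.9 CPM in Del(i9-13):Hoxb13hd against 137, 130.2 and 126 CPM in Hoxb13hd. Its interaction was 0.69 (adjusted p = 0.0117), and the call was lost without Del(i9-13):Hoxb13hd replicate 1, at an adjusted p of 0.0544.

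Gchfr and Hebp1 showed the same order at lower levels. Gchfr (chr2:119167773-119172390), the feedback regulator of GTP cyclohydrolase I, had 1.76, 1.77 and 3.08 CPM in Del(i9-13) against 0.499, 0.805 and 0.632 CPM in wild type, and 0.619, 1.13 and 0.521 CPM in Del(i9-13):Hoxb13hd against 1.86, 2.41 and 2.96 CPM in Hoxb13hd. All 6 libraries of Del(i9-13) and Hoxb13hd exceeded the other 6. Its interaction was 3.41 ± 0.48 (SE; adjusted p = 0.00591), with 1.76 (adjusted p = 0.045) without hd and -1.65 (adjusted p = 0.0423) with hd. Hebp1 (chr6:135137522-135168215), a heme-binding protein, had 22.9, 23.4 and 16.9 CPM in Del(i9-13) against 12.7, 12.1 and 8.59 CPM in wild type, and 13.3, 11 and 12.1 CPM in Del(i9-13):Hoxb13hd against 17.4, 17.9 and 23.7 CPM in Hoxb13hd. Its interaction was 1.62 (adjusted p = 0.01). The deletion effect on Hebp1 was called without hd, at 0.92 (adjusted p = 0.033), whereas the value with hd was -0.70 (adjusted p = 0.0707). Of the other named genes with this order, Chchd5, Ganc, Vars2, Zfyve19, Tmem35b, Slc9a8 and Srsf5 had interactions from 0.45 to 1.95. Every one of these 7 calls was lost when one or another library was left out, with highest adjusted p of 0.0672 for Chchd5, 0.0729 for Ganc, 0.101 for Vars2, 0.109 for Zfyve19, 0.105 for Tmem35b, 0.125 for Slc9a8 and 0.122 for Srsf5.

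Arntl2, Frzb, Ulbp1, Eif3j1 and Fam234b were crossed the other way, low in Del(i9-13) and Hoxb13hd. Arntl2 (chr6:146796065-146833529), a partner of CLOCK and paralog of the circadian factor Arntl, had 0.401, 0.724 and 0.295 CPM in Del(i9-13) against 2.36, 1.7 and 2.53 CPM in wild type, and 1.9, 1.64 and 1.82 CPM in Del(i9-13):Hoxb13hd against 0.979, 1.42 and 0.898 CPM in Hoxb13hd. Wild type and Del(i9-13):Hoxb13hd overlapped above all libraries of the other groups, and the interaction was -2.9 ± 0.43 (SE; adjusted p = 0.00865). Arntl2 was the single call among 18 circadian clock genes, whose median interaction was 0.02 with 11 values positive. Frzb (chr2:80411970-80447625), which encodes a secreted antagonist of Wnt ligands, had 40.5, 28.2 and 37 CPM in Del(i9-13) against 54.1, 48.9 and 45.1 CPM in wild type, and 48.5, 56.7 and 52.5 CPM in Del(i9-13):Hoxb13hd against 33.6, 36 and 34.2 CPM in Hoxb13hd. The lowest wild type library stood above the highest of Del(i9-13), and the Hoxb13hd libraries lay within the Del(i9-13) range. Its interaction was -1.09 ± 0.17 (SE; adjusted p = 0.0108), and the deletion effect was called with hd, at 0.60 (adjusted p = 0.0349), whereas it was -0.49 (adjusted p = 0.128) without hd.

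Ulbp1 (chr10:7440362-7473638), a cell surface ligand of the NKG2D receptor of natural killer cells, had 18.9, 13.1 and 20.6 CPM in Del(i9-13) against 26.5, 24.8 and 25.5 CPM in wild type, and 22.9, 26.2 and 28.9 CPM in Del(i9-13):Hoxb13hd against 16.5, 14.5 and 13.5 CPM in Hoxb13hd. It overlapped between wild type and Del(i9-13):Hoxb13hd, both above the other groups, and its interaction was -1.35 ± 0.21 (SE; adjusted p = 0.0108). Eif3j1 (chr2:122028546-122056598), a subunit of translation initiation factor 3, had 33, 30.3 and 29.1 CPM in Del(i9-13) against 49, 50 and 45.3 CPM in wild type, and 49.5, 49 and 42.9 CPM in Del(i9-13):Hoxb13hd against 34.5, 37.9 and 41.1 CPM in Hoxb13hd. Its interaction was -0.96 ± 0.12 (SE; adjusted p = 0.00238). Eif3j1 has a near-identical copy, Eif3j2, described below, so its counts are uncertain. Summed with that copy it was not called, at -0.40 (adjusted p = 0.227), with means of 46.3 CPM in Hoxb13hd and 48.2 CPM in wild type. Fam234b (chr6:135197977-135244955) had 18.5, 15.8 and 15.6 CPM in Del(i9-13) against 22.5, 21.6 and 23.9 CPM in wild type, and 24, 23.3 and 26.7 CPM in Del(i9-13):Hoxb13hd against 19.4, 17.9 and 19.3 CPM in Hoxb13hd, and its interaction was -0.83 (adjusted p = 0.0121). The 6 libraries of wild type and Del(i9-13):Hoxb13hd were the higher ones in both genes. These 5 calls, like those of Pop4, H4f16, Bcl2l12, Gchfr and Hebp1, held in all 12 fits that left out 1 library. The remaining named genes with this order were Atp9a, Gsg1, Mpp7, Aldh3b2, Oip5os1 and Ifi202b. Their calls were lost in 3 (Mpp7) to 11 (Aldh3b2) of those fits, with adjusted p up to 0.0697 for Mpp7, 0.0683 for Atp9a, 0.0664 for Gsg1, 0.116 for Aldh3b2, 0.131 for Oip5os1 and 0.109 for Ifi202b. Ifi202b, an interferon-inducible gene, had 0 counts in all Del(i9-13) libraries, and was at least 30.9-fold lower there than in wild type if the group is set at a floor of 3 counts in all, a bound that covers counting error only.

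Del(i9-13) alone set 10 genes, 7 of which fell under the naming rule. Emp1 (chr6:135362545-135383173), an epithelial membrane protein, had 28.6, 34.8 and 33.6 CPM in Del(i9-13) against 15.1, 15.5 and 18 CPM in wild type, and 18.9, 18.4 and 16.7 CPM in Del(i9-13):Hoxb13hd against 20.4, 20 and 19.6 CPM in Hoxb13hd. Del(i9-13) stood above the other 9 libraries, which spanned a narrow range. Its interaction was 1.15 ± 0.14 (SE; adjusted p = 0.00136), with 0.99 (adjusted p = 0.000216) without hd and -0.15 (adjusted p = 0.513) with hd. Hfm1 (chr5:106840194-106926321), a DNA helicase needed for meiotic crossing over, had 0.28, 0.136 and 0.253 CPM in Del(i9-13) against 4.26, 2.8 and 4.17 CPM in wild type, and 2.25, 1.87 and 4.17 CPM in Del(i9-13):Hoxb13hd against 1.45, 2.04 and 1.74 CPM in Hoxb13hd. Its level was near 0 in Del(i9-13), and the other 3 groups differed among themselves, with Hoxb13hd below wild type. The interaction was -4.68 ± 0.50 (SE; adjusted p = 0.000367), of which -4.02 (adjusted p = 0.000179) came from the effect without hd. Hfm1 was the single call of 13 meiosis genes tested, whose median interaction was 0.24 with 9 values positive.

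Polr1b (chr2:129100995-129126594), the second-largest subunit of RNA polymerase I, had 76.2, 75.2 and 64.2 CPM in Del(i9-13) against 105, 107 and 98.3 CPM in wild type, and 96.5, 98.6 and 98.9 CPM in Del(i9-13):Hoxb13hd against 91.3, 95.3 and 89.3 CPM in Hoxb13hd. Del(i9-13) lay below the other 9 libraries, and the interaction was -0.61 ± 0.10 (SE; adjusted p = 0.0131). Rbpj (chr5:53466152-53657362), the DNA-binding effector of Notch signalling, had 29, 22.6 and 25.5 CPM in Del(i9-13) against 45.1, 45.8 and 46 CPM in wild type, and 50, 45.7 and 53.1 CPM in Del(i9-13):Hoxb13hd against 30.6, 46.5 and 47.5 CPM in Hoxb13hd. Hoxb13hd replicate 1 lay close to the Del(i9-13) range, and the other 2 Hoxb13hd libraries lay at or just above the wild type levels. The interaction of Rbpj was -1.08 ± 0.20 (SE; adjusted p = 0.0365), called in 4 of the 12 fits that left out 1 library, with an adjusted p of up to 0.106 in the others. Emp1, Hfm1 and Polr1b were called in all 12. Dgke, a diacylglycerol kinase, had 19.6, 18.4 and 19.1 CPM in Del(i9-13), 12, 10.2 and 11.3 CPM in wild type, 11.81, 11.3 and 12.4 CPM in Del(i9-13):Hoxb13hd and 13.9, 11.1 and 13.1 CPM in Hoxb13hd, and its interaction of 0.87 (adjusted p = 0.0209) was called in 7 of the 12 fits that left out 1 library, with an adjusted p of up to 0.0765. Zc3h6 and Zfp518a, at 1.26 (adjusted p = 0.0427) and 0.44 (adjusted p = 0.0386), were called in 2 of the 12 each, with adjusted p of up to 0.126 and 0.122.

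Wild type alone set 12 genes, and 6 of them lie on chromosome 11, which carries HoxB and 7.6% of the genes tested. Their starts lay 0.72 to 23.3 Mb from that of Hoxb13, except for Rps15a-ps6 at -90.02 Mb. Banp (chr8:121949750-122029258), a transcription factor first found as a nuclear matrix protein, had 44.4, 44.4 and 43.2 CPM in Del(i9-13) against 56.2, 64.2 and 56.4 CPM in wild type, and 43.8, 44.9 and 42 CPM in Del(i9-13):Hoxb13hd against 34.7, 34.5 and 35.7 CPM in Hoxb13hd. Wild type was highest and Hoxb13hd lowest, with Del(i9-13) and Del(i9-13):Hoxb13hd alike. Its interaction was -0.74 ± 0.10 (SE; adjusted p = 0.00252) and was called in all 12 fits that left out 1 library, and Banp was among the genes called in opposite directions, at -0.42 (adjusted p = 0.0112) without hd and 0.32 (adjusted p = 0.049) with hd.

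Endov (chr11:119491347-119511437), an endonuclease that cuts beside inosine, was low in wild type. It had 34.6, 36.4 and 34.5 CPM in Del(i9-13) against 25.3, 22.5 and 24.8 CPM in wild type, and 31.5, 33 and 32.7 CPM in Del(i9-13):Hoxb13hd against 34.7, 34 and 34.1 CPM in Hoxb13hd. The interaction was 0.62 ± 0.10 (SE; adjusted p = 0.0134), and the call was lost without Del(i9-13):Hoxb13hd replicate 1, at an adjusted p of 0.0567. Slc9a3r1, a scaffold protein of the apical membrane, had 63.2, 59.9 and 49.4 CPM in Del(i9-13), 39.8, 43.5 and 41.5 CPM in wild type, 59.5, 63.1 and 60.1 CPM in Del(i9-13):Hoxb13hd and 69.5, 73.8 and 63.8 CPM in Hoxb13hd. Mettl23, a methyltransferase, had 15.9, 19.5 and 20.6 CPM in Del(i9-13), 7.62, 7.79 and 12.2 CPM in wild type, 17.4, 16.6 and 15 CPM in Del(i9-13):Hoxb13hd and 16, 20.4 and 21.8 CPM in Hoxb13hd. In both the wild type libraries were the lowest, and the interactions were 0.65 (adjusted p = 0.0427) and 1.26 (adjusted p = 0.0444). Slc9a3r1 was called in 2 and Mettl23 in 3 of the 12 fits that left out 1 library, with adjusted p of up to 0.128 and 0.131. Khdc4, a KH domain RNA-binding protein on chromosome 3, was high in wild type, at -0.43 (adjusted p = 0.0427), and was called in 2 of the 12 fits that left out 1 library, with an adjusted p of up to 0.119.

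Del(i9-13):Hoxb13hd alone set 3 genes. Mir17hg (chr14:115042879-115046727), the host transcript of a microRNA cluster that includes miR-17, had 81.5, 64 and 62.8 CPM in Del(i9-13) against 67.4, 70.1 and 65.4 CPM in wild type, and 47.4, 41.9 and 43.8 CPM in Del(i9-13):Hoxb13hd against 67.4, 67.6 and 70.8 CPM in Hoxb13hd. The 3 double mutant libraries lay below the other 9, which overlapped. The effect with hd was -0.63 (adjusted p = 0.00912), whereas that without hd was 0.04 (adjusted p = 0.941). Trmo, a tRNA methyltransferase, had 10.6, 8.46 and 11.4 CPM in Del(i9-13) against 6.25, 7.67 and 6.44 CPM in wild type, and 3.4, 4.06 and 4.34 CPM in Del(i9-13):Hoxb13hd against 6.29, 7.62 and 12.1 CPM in Hoxb13hd. Their interactions were 0.67 (adjusted p = 0.0427) for Mir17hg and 1.71 (adjusted p = 0.0261) for Trmo. Mir17hg was called in 3 and Trmo in 6 of the 12 fits that left out 1 library, with adjusted p of up to 0.134 and 0.0881. The third gene was a pseudogene, Gm4815, described below with the other copies.

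Hoxb13hd alone set 18 genes, 16 of them low there. Clmp (chr9:40686012-40785319), a cell adhesion molecule of the immunoglobulin superfamily, had 70.5, 65.3 and 67 CPM in Del(i9-13) against 76.4, 64.6 and 78 CPM in wild type, and 77.7, 79 and 82.6 CPM in Del(i9-13):Hoxb13hd against 48.7, 51.1 and 52.9 CPM in Hoxb13hd. The Hoxb13hd libraries lay below the other 9, which overlapped between groups. Its interaction was -0.76 ± 0.11 (SE; adjusted p = 0.0047), the effect with hd was 0.65 (adjusted p = 0.00125) and the effect without hd -0.11 (adjusted p = 0.716), and it was called in all 12 fits that left out 1 library. Lepr, the leptin receptor, had 5.01, 5.93 and 5.83 CPM in Del(i9-13) against 6.53, 6.1 and 8.21 CPM in wild type, and 6.5, 4.49 and 4.43 CPM in Del(i9-13):Hoxb13hd against 2.28, 2.13 and 2.48 CPM in Hoxb13hd. Pla2g4a, a cytosolic phospholipase that frees arachidonic acid, had 16.5, 19.5 and 17.4 CPM in Del(i9-13), 19.7, 17.6 and 18.6 CPM in wild type, 18.8, 19.1 and 19.1 CPM in Del(i9-13):Hoxb13hd and 11.6, 13 and 9.56 CPM in Hoxb13hd. Pgm5, a relative of phosphoglucomutase found at cell junctions, had 40.7, 56.2 and 48.8 CPM in Del(i9-13), 47.9, 51.3 and 48 CPM in wild type, 51.6, 56.5 and 57.8 CPM in Del(i9-13):Hoxb13hd and 36.1, 31.5 and 33.1 CPM in Hoxb13hd. In each of these genes Hoxb13hd stood below every other library. The interactions were -1.47 (adjusted p = 0.0245) for Lepr, -0.8 (adjusted p = 0.0419) for Pla2g4a and -0.73 (adjusted p = 0.0447) for Pgm5.

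Slitrk6, Pcdh10 and Grik1 were also low in Hoxb13hd. Slitrk6, a neuronal transmembrane protein, had 26.5, 24.1 and 27.1 CPM in Del(i9-13), 34.7, 28 and 31.7 CPM in wild type, 24.4, 25.9 and 26.6 CPM in Del(i9-13):Hoxb13hd and 19.6, 18.8 and 19.9 CPM in Hoxb13hd. Pcdh10, a protocadherin of the nervous system, had 6.89, 5.39 and 5.32 CPM in Del(i9-13), 7.66, 5.17 and 7.62 CPM in wild type, 7.12, 6.32 and 6.51 CPM in Del(i9-13):Hoxb13hd and 3.22, 3.55 and 2.75 CPM in Hoxb13hd. Grik1, a subunit of the kainate receptor for glutamate, had 1.32, 1.31 and 1.81 CPM in Del(i9-13), 2.04, 2.16 and 2.61 CPM in wild type, 1.86, 1.95 and 2.21 CPM in Del(i9-13):Hoxb13hd and 1.03, 0.616 and 1.11 CPM in Hoxb13hd. Hoxb13hd was lowest in all 3, and wild type was highest or shared the top with another group. Their interactions were -0.68 (adjusted p = 0.0365), -1.28 (adjusted p = 0.0427) and -1.74 (adjusted p = 0.0436). Agtr2, the type 2 angiotensin receptor, was at or near 0 in Hoxb13hd, with 1, 2.08 and 1.182 CPM in Del(i9-13), 2.31, 0.593 and 2.06 CPM in wild type, 2.08, 1.68 and 1.35 CPM in Del(i9-13):Hoxb13hd and 0.14, 0.0947 and 0 CPM in Hoxb13hd. Its interaction of -4.52 (adjusted p = 0.0392) rests on low counts. Nwd2 and Palmd had interactions of -2.55 (adjusted p = 0.0226) and -1.96 (adjusted p = 0.0226), and Cntln, a centrosomal protein, had -0.59 (adjusted p = 0.0444). Apart from Clmp, each named gene low in Hoxb13hd lost its call in 6 or more of the fits that left out 1 library. The highest adjusted p were 0.0662 for Lepr, 0.118 for Pla2g4a, 0.125 for Pgm5, 0.106 for Slitrk6, 0.125 for Pcdh10, 0.126 for Grik1, 0.109 for Agtr2, 0.0659 for Nwd2, 0.0739 for Palmd and 0.135 for Cntln.

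Summed levels of 17 spinal cord neuron markers were 397 to 495 CPM in Del(i9-13), 347 to 499 CPM in wild type, 460 to 486 CPM in Del(i9-13):Hoxb13hd and 210 to 328 CPM in Hoxb13hd. The neuron markers thus ran lowest in Hoxb13hd. The 16 genes set low by that group are lowest there by the class rule, so their likeness to the markers is no result. The interaction of the markers had a median of -0.82 with 15 of 17 values negative, and 0 passed the test. The part of this list in the calls was not tested. Olfml2a, an extracellular olfactomedin domain protein, was high in Hoxb13hd. It had 7.01, 5.3 and 6.5 CPM in Del(i9-13), 4.67, 4.96 and 4.8 CPM in wild type, 4.86, 5.93 and 6.82 CPM in Del(i9-13):Hoxb13hd and 8.86, 8.95 and 9.93 CPM in Hoxb13hd. Its interaction of 1.04 (adjusted p = 0.047) stood just inside the threshold, beside Zfp46 and Vcam1 at adjusted p of 0.0476 and 0.0485. The nearest genes outside it were Ugdh, Lockd and Mrps5, at 0.0509, 0.052 and 0.0547, and the call of Olfml2a was lost in 11 of the fits that left out 1 library, with an adjusted p of up to 0.129.

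**Figure D3:**
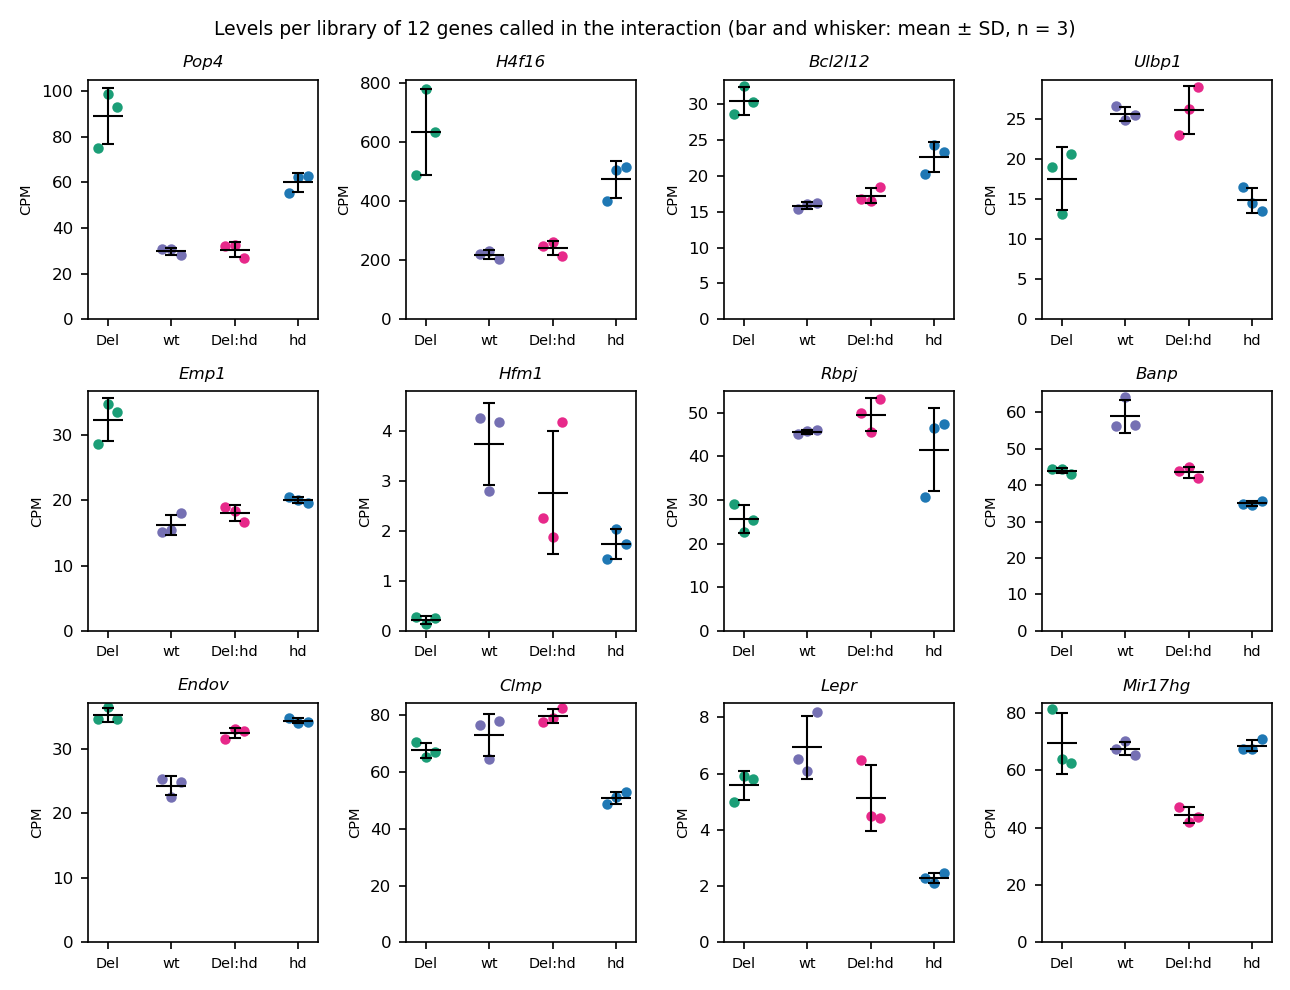
CPM per library (points) with mean ± SD of 3 libraries (bar and whisker) in Del(i9-13) (Del), wild type (wt), Del(i9-13):Hoxb13hd (Del:hd) and Hoxb13hd (hd), one panel a gene. Pop4, H4f16, Bcl2l12 and Ulbp1 are crossed, Emp1, Hfm1 and Rbpj are set by Del(i9-13), Banp and Endov by wild type, Clmp and Lepr by Hoxb13hd and Mir17hg by Del(i9-13):Hoxb13hd.

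The 7 genes without a class included 4 named ones. Arhgdib had 11.9, 10.2 and 8.65 CPM in Del(i9-13) against 12.8, 10.8 and 13.5 CPM in wild type, and 14.1, 14.4 and 14.3 CPM in Del(i9-13):Hoxb13hd against 8.62, 8.33 and 8.19 CPM in Hoxb13hd. Its Del(i9-13) libraries overlapped those of wild type. St6gal2, a sialyltransferase, had 16.9, 16.5 and 18.3 CPM in Del(i9-13) against 21.3, 19.6 and 21.6 CPM in wild type, and 15.6, 15.3 and 15 CPM in Del(i9-13):Hoxb13hd against 11.4, 12.2 and 11.9 CPM in Hoxb13hd. It was highest in wild type and lowest in Hoxb13hd. Plppr1 and Mfap1b had interactions of -2.58 (adjusted p = 0.0365) and -0.79 (adjusted p = 0.0386), beside -1.04 (adjusted p = 0.0202) for Arhgdib and -0.64 (adjusted p = 0.0314) for St6gal2. Mfap1b lies beside a near-identical paralog, so its counts are uncertain. All 4 lost the call in 6 to 9 of the fits that left out 1 library, with adjusted p of up to 0.0619 for Arhgdib, 0.0918 for St6gal2, 0.106 for Plppr1 and 0.112 for Mfap1b.

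Chromosome 2 held 18 of the 90 calls (20%) and 7.63% of the genes tested, and 13 of the 18 were crossed. Chromosome 6 held 9 calls (10%, with 5.12% of the genes tested), 6 of them crossed. Chromosome 7 held 6 (6.67%, with 7.61% of the genes tested), all crossed. Chromosome 11 held 9 calls (10%, with 7.6% of the genes tested), of which 6 were set by wild type and 1 was crossed. Calls whose starts lay within 5 Mb of each other formed runs. The longest covered chr2:119167773-122749475, with 7 calls among 70 genes tested there, namely Gchfr, Zfyve19, Oip5os1, Ganc, Mfap1b, Eif3j1 and Bloc1s6. Of these 7, 6 were crossed. A second run, at chr6:135137522-136941899, held 6 calls among 15 genes tested: Hebp1, Fam234b, Gsg1, Emp1, H4f16 and Arhgdib. Of these 6, 4 were crossed.

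Runs of 3 calls lay on chromosomes 2, 4, 7 and 11. On chromosome 2, Ppp1r1c, Frzb and Tmx2 were 3 of 20 genes tested in a stretch of 4.97 Mb, and Zc3h6, Polr1b and Chchd5 were 3 of 6 in 0.17 Mb. On chromosome 7, the unnamed gene 2410002F23Rik with Pold1 and Bcl2l12 made 3 of 30, all crossed. On chromosome 11, Slc9a3r1, Mettl23 and Endov made 3 of 98, all set by wild type, 18.97 to 23.3 Mb from Hoxb13. On chromosome 4, Trmo, Plppr1 and the pseudogene Rps15a-ps8 made 3 of 38 and had 3 different patterns. Within the runs on chromosomes 2 and 6 the direction was mixed, with Gchfr, Hebp1 and H4f16 positive and Eif3j1, Fam234b and Gsg1 negative. The part of chromosome position in the calls was not tested.

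**Figure D4:**
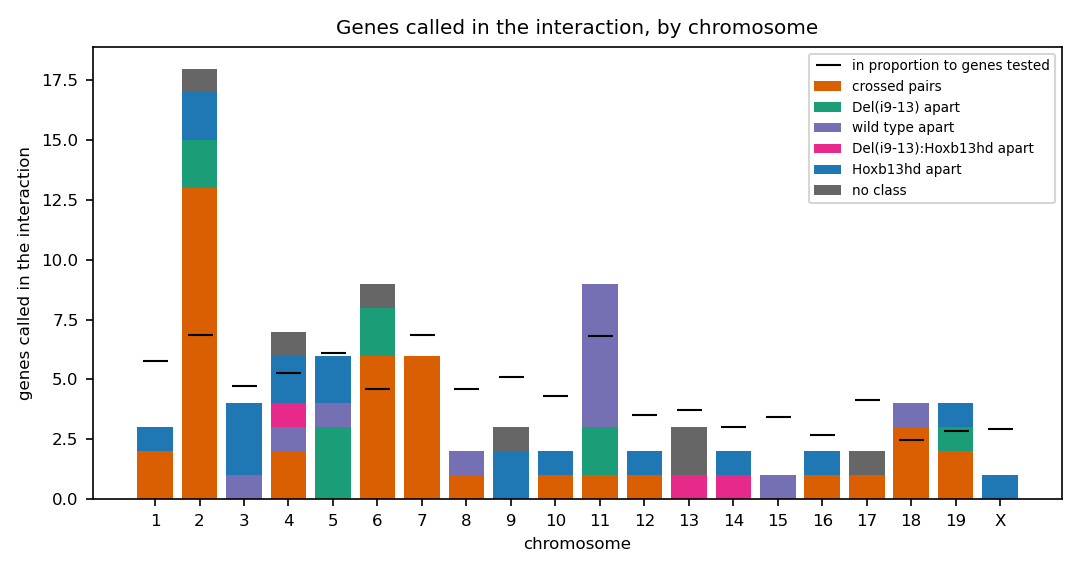
Number of genes called in the interaction on each chromosome (stacked bars, by class), with a dash where the 90 calls would stand in proportion to the genes tested. Chromosome 2 has 18 calls, 13 of them crossed, and chromosome 7 has 6, all crossed.

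Pseudogenes made up 22 of the 90 calls and were 481 of the genes tested, so 4.57% of them were called, against 0.439% of 14340 protein-coding genes. They, retrocopies (RNA copies put back into the genome) and a near-identical gene are shown with sequence because few bases tell their reads from those of another gene. A match was sought only for the 22 called pseudogenes and for Eif3j2, H4f16, Gm4353, Gm6685 and Gm32687. Of these, 25 matched a protein-coding transcript over 90% or more of their length, at 86.7% to 99.9% identity (median 98.9%) in GENCODE M21. The other calls were not searched. These copies were chosen after their values were seen. Among the 40 crossed genes 11 were such copies, and the closest gene of 8 of them lies on chromosome 2, of 2 on chromosome 6 and of 1 elsewhere. The other 29 crossed genes, of which only H4f16 was searched, lie on chromosome 2 (11), chromosome 6 (5), chromosome 7 (5) and other chromosomes (8).

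Pcna-ps2, on chromosome 19, is a pseudogene 99.2% identical to Pcna, the sliding clamp of DNA replication, on chromosome 2. Gm13394, on chromosome 2, is 99.9% identical to Gapdh, a glycolytic enzyme gene on chromosome 6. Gm15772, on chromosome 5, is 99.5% identical to the ribosomal protein gene Rpl26 on chromosome 11. Rps15a-ps8, on chromosome 4, is 92.2% identical to the ribosomal protein gene Rps15a on chromosome 7. The 60 bases below are aligned stretches of each transcript, 5′ to 3′ on the transcript strand, from GENCODE M21 (GRCm38), with the differing bases in capitals. Each window is the coding stretch with the most differing bases, so the windows stand for themselves and not for the whole transcripts, whose identities are given above.
Pcna-ps2: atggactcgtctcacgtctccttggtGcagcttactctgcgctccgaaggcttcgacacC
Pcna: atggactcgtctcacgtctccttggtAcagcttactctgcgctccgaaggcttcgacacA
Gm13394: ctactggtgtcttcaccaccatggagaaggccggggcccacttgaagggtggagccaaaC
Gapdh: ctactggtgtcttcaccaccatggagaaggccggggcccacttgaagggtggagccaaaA
Gm15772: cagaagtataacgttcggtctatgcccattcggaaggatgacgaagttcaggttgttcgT
Rpl26: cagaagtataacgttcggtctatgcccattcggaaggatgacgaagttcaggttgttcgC
Rps15a-ps8: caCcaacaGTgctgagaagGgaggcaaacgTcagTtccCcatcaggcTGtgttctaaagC
Rps15a: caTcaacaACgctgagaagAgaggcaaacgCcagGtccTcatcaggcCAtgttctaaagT
The number of differing bases in these windows was 2 for Pcna-ps2, 1 for Gm13394, 1 for Gm15772 and 10 for Rps15a-ps8.

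Pcna-ps2 had 14.8, 17 and 17 CPM in Del(i9-13), 0.227, 0.381 and 0.253 CPM in wild type, 0.0442, 0.273 and 0.174 CPM in Del(i9-13):Hoxb13hd and 16, 21 and 19.4 CPM in Hoxb13hd, while Pcna had 274, 339 and 311 CPM in Del(i9-13), 374, 397 and 323 CPM in wild type, 372, 382 and 331 CPM in Del(i9-13):Hoxb13hd and 304, 371 and 343 CPM in Hoxb13hd. The copy was crossed with no overlap, and the 6 libraries with the copy were not apart from the rest in Pcna itself. Gm13394 had 148, 143 and 1.77 CPM in Del(i9-13), 0, 0.0847 and 0.0421 CPM in wild type, 0, 0 and 0.0868 CPM in Del(i9-13):Hoxb13hd and 85.2, 88.8 and 86.2 CPM in Hoxb13hd, while Gapdh had 602, 601 and 836 CPM in Del(i9-13), 865, 978 and 891 CPM in wild type, 965, 1020 and 934 CPM in Del(i9-13):Hoxb13hd and 859, 951 and 871 CPM in Hoxb13hd. Del(i9-13) replicate 3 stood apart from replicates 1 and 2 in both, with almost none of the copy and more Gapdh. The interactions of the copies were 12.55 (adjusted p = 7.78e-10) for Pcna-ps2 and 22.3 (adjusted p = 0.0248) for Gm13394, on groups at or near 0, so that these log2 values are no measure of size. Pcna-ps2 was called in all 12 fits that left out 1 library and Gm13394 in 3 of them.

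Gm15772 had 0.401, 0.317 and 0.549 CPM in Del(i9-13), 171, 182 and 287 CPM in wild type, 157, 179 and 151 CPM in Del(i9-13):Hoxb13hd and 151, 396 and 377 CPM in Hoxb13hd, while Rpl26 had 415, 626 and 578 CPM in Del(i9-13), 275, 303 and 38.4 CPM in wild type, 272, 283 and 244 CPM in Del(i9-13):Hoxb13hd and 239, 53.2 and 51.1 CPM in Hoxb13hd. The copy was near 0 in Del(i9-13), and libraries with the most of the copy, wild type replicate 3 and Hoxb13hd replicates 2 and 3, had the least Rpl26. Rps15a-ps8 had 13.3, 18.2 and 15.9 CPM in Del(i9-13), 0.0453, 0 and 0 CPM in wild type, 14.4, 15.1 and 13.1 CPM in Del(i9-13):Hoxb13hd and 12.3, 18.1 and 6.82 CPM in Hoxb13hd. All 9 mutant libraries stood far above the wild type ones of E10.5. At E9.5, however, Rps15a-ps8 had 25.19, 12.45 and 26.21 CPM in wild type and 23.66, 12.14 and 23.22 CPM in Del(i9-13). Gm15772 had 1.237, 297.1 and 292.8 CPM in E9.5 wild type and 157.4, 327.2 and 142.6 CPM in E9.5 Del(i9-13).

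Single groups and single libraries carried other copies. Gm15459, 99.7% identical to the chaperone gene Hspa8, had 2.12, 2.49 and 2.87 CPM in Del(i9-13), 2.45, 2.75 and 2.74 CPM in wild type, 2.03, 2.46 and 1.87 CPM in Del(i9-13):Hoxb13hd and 532, 304 and 271 CPM in Hoxb13hd. It was high in Hoxb13hd alone at E10.5. In E9.5 libraries Gm15459 had 238.2, 246.5 and 3.533 CPM in wild type and 229.6, 231.8 and 2.835 CPM in Del(i9-13). Hspa8 at E10.5 had 2780, 3130 and 2960 CPM in Del(i9-13) and 3120, 3290 and 2710 CPM in wild type. Its levels were 2650, 2940 and 2580 CPM in Del(i9-13):Hoxb13hd and lowest in Hoxb13hd, at 1550, 2270 and 2170 CPM. Gm4815, 96.6% identical to Cnn3, was high in Del(i9-13):Hoxb13hd, with 0.12, 0.136 and 0.295 CPM in Del(i9-13), 0.272, 0.0847 and 0.168 CPM in wild type, 10.1, 4.8 and 4.56 CPM in Del(i9-13):Hoxb13hd and 0.14, 0.189 and 0.211 CPM in Hoxb13hd. No other E10.5 library came near these 3, but E9.5 wild type replicate 3 had 6.603 CPM. Rps3a3 had 0.12, 0.498 and 0.633 CPM in Del(i9-13), 0.181, 138 and 120 CPM in wild type, 139, 150 and 133 CPM in Del(i9-13):Hoxb13hd and 0.28, 0.142 and 0.159 CPM in Hoxb13hd, so that wild type replicate 1 differed from replicates 2 and 3. Rps3a1, its closest gene, had 656, 961 and 872 CPM in Del(i9-13), 794, 479 and 416 CPM in wild type, 453, 489 and 410 CPM in Del(i9-13):Hoxb13hd and 685, 828 and 792 CPM in Hoxb13hd, with the lower values in the libraries that had the copy. Eif3j2, a retrocopy on chromosome 18 that is 99.4% identical to Eif3j1, had 7.17, 6.66 and 5.99 CPM in Del(i9-13), 0.0453, 0.127 and 0.168 CPM in wild type, 0, 0.078 and 0.217 CPM in Del(i9-13):Hoxb13hd and 7.79, 8.1 and 9.46 CPM in Hoxb13hd, while its closest gene Eif3j1, given above, was low in the same 6 libraries. Eif3j2, Gm15459, Gm15772 and Rps15a-ps8 were called in all 12 fits that left out 1 library, Gm4815 in 10 and Rps3a3 in 1.

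When each of the 25 copies was summed with its closest gene, 0 of the 23 sums were called in the interaction by edgeR's quasi-likelihood test, and 20 had a log2 value between -0.5 and 0.5. The other sums were -15.55 for Hist2h2aa2 with Hist1h2al (adjusted p = 0.0612, the smallest of all), against -15.81 for Hist1h2al alone (adjusted p = 0.0401), 0.73 for Rps3a1 with Rps3a3 (adjusted p = 0.215) and -0.77 for Zfp433 with Gm32687 (adjusted p = 0.39). Hist2h2aa2 with Hist1h2al averaged 0.47 ± 0.0967 CPM in Del(i9-13), 76.7 ± 66.8 CPM in wild type, 117 ± 31.4 CPM in Del(i9-13):Hoxb13hd and 0.393 ± 0.0742 CPM in Hoxb13hd (SD, n = 3 each), so its log2 value rests on groups near 0. The sum of Gapdh and Gm13394 was -0.22 ± 0.11 (SE; adjusted p = 0.448), that of Rpl26 and Gm15772 0.34 ± 0.22 (adjusted p = 0.568), and that of Eif3j1 and Eif3j2 -0.40 ± 0.12 (adjusted p = 0.227). The closest gene had the higher mean CPM in all 24 pairs in which it passed the filter, taken over all 12 libraries, though within Hoxb13hd Gm15772 averaged 308 CPM and Rpl26 114 CPM. Gm18234 averaged 1.43 CPM beside 368 CPM of Zfp106 in Del(i9-13), and Gm4815 6.5 CPM beside 474 CPM of Cnn3 in Del(i9-13):Hoxb13hd. Where the closest gene is so far above the copy, the sum stays near that gene whatever the copy does. A sum of that kind says nothing about the copy. In other pairs the copy was a large part of the sum. Rpl26 alone averaged 205 CPM in wild type and 114 CPM in Hoxb13hd, and with Gm15772 419 and 422 CPM. Calls over all genes then numbered 29, every one among the 90. Genes whose own counts were left as they were, such as Vars2, lost their call there, and the cause was not tested. This counting was added after the data were seen.

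**Figure D5:**
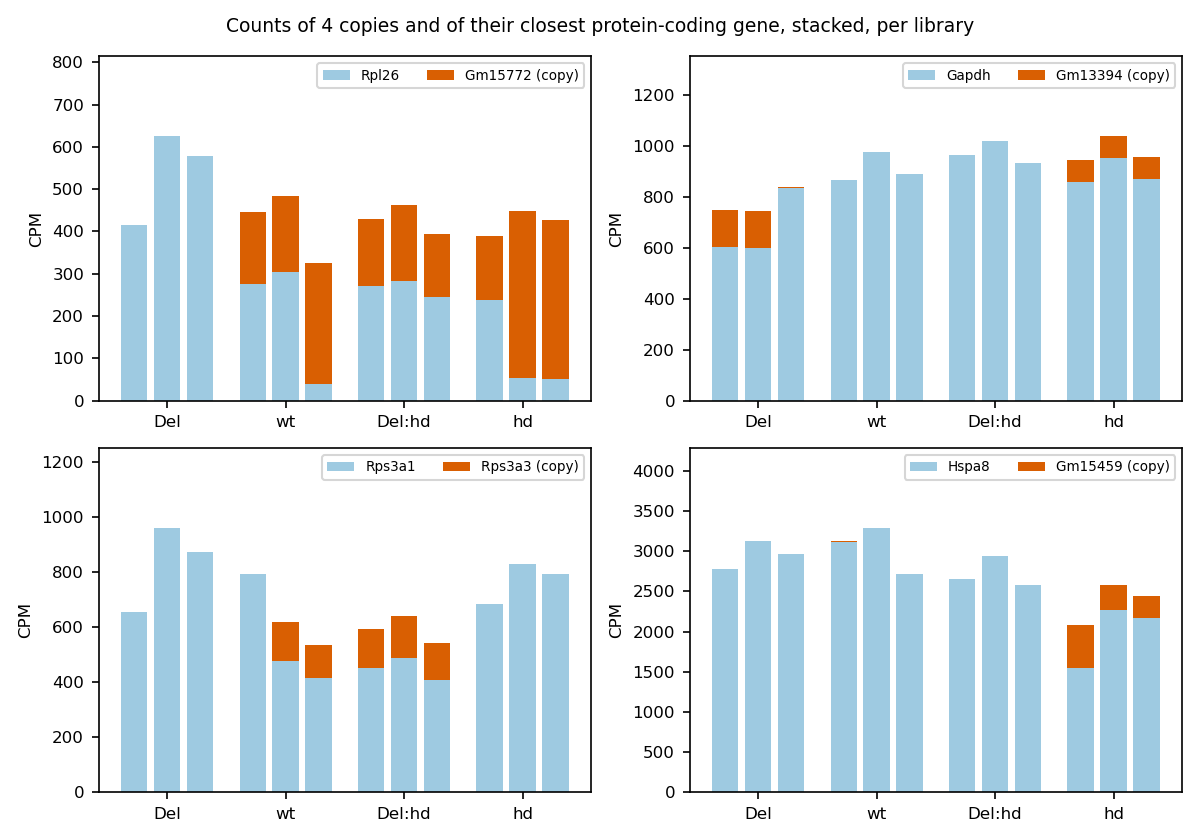
CPM per library of 4 copies (orange) stacked on their closest protein-coding gene (blue), in Del(i9-13) (Del), wild type (wt), Del(i9-13):Hoxb13hd (Del:hd) and Hoxb13hd (hd), with 3 bars a group for replicates 1 to 3. Gm15772 is missing from the Del(i9-13) bars, Gm13394 from wild type and Del(i9-13):Hoxb13hd, Rps3a3 from Del(i9-13), Hoxb13hd and wild type replicate 1, and Gm15459 is seen in Hoxb13hd.

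The Hox genes closest to the mutations did not pass the interaction test. Hoxb13 (chr11:96194316-96197447) had 10.8, 5.88 and 12.2 CPM in Del(i9-13) against 1.13, 0.127 and 0.0421 CPM in wild type, and 11.3, 12 and 9.9 CPM in Del(i9-13):Hoxb13hd against 0, 0.0473 and 0.106 CPM in Hoxb13hd. It was higher in all 6 deletion libraries than in the other 6, and most of the wild type level came from replicate 1. The deletion effect was 4.49 (adjusted p = 0.0074) without hd and 7.67 (adjusted p = 0.00318) with hd, and the interaction was -3.18 ± 1.41 (SE; adjusted p = 0.416). Hoxb9 (chr11:96271457-96276595) had 59.3, 50.3 and 52.3 CPM in Del(i9-13) against 90.8, 99.5 and 82.7 CPM in wild type, and 72.9, 70.2 and 66.6 CPM in Del(i9-13):Hoxb13hd against 95.1, 125 and 124 CPM in Hoxb13hd. It was lower in the deletion libraries of both pairs, and its interaction was -0.04 ± 0.15 (SE; adjusted p = 0.938). Gm53, in the interval between them, had 0 counts in all 6 deletion libraries, so its interaction has no meaning on a log scale. Hoxa13, Hoxc13 and Hoxd13, the other group 13 genes, had interactions of -0.21 (adjusted p = 0.941), -0.97 (adjusted p = 0.63) and 0.18 (adjusted p = 0.878). Del(i9-13) replicate 2 had the lowest level of its group in each of these 3, at 0.317 CPM against 4.45 and 5.32 CPM in replicates 1 and 3 for Hoxa13. None of 13 HoxB genes tested was called, with a median interaction of 0.24, nor any of 17 Hox genes of groups 9 to 13 in the other clusters, with a median of -0.02.

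Genes of the tail bud had interactions mostly of 1 sign, without a single call. Of 26 tail bud and axial elongation genes, 0 were called and 24 had a positive interaction, with a median of 0.66, against 8651 positive of 17202 genes and a median of 0.00. Cdx2 and Cdx4, transcription factors of axial growth, had interactions of 1.39 and 1.28, T (brachyury) 0.73, Tbx6 0.97, Wnt3a 0.48 and Fgf8 0.61. Cdx2 averaged 3.94 ± 1.1 CPM in Del(i9-13), 4.74 ± 3.25 CPM in wild type, 4.41 ± 0.264 CPM in Del(i9-13):Hoxb13hd and 13.9 ± 4.17 CPM in Hoxb13hd (SD, n = 3 each), and its interaction missed the threshold at an adjusted p of 0.426. The deletion effect on Cdx2 was -0.26 without hd and -1.66 with hd, that on T was -0.27 and -1.0, and that on Tbx6 -0.22 and -1.19. None of these effects passed the test. In the sums given above the Hoxb13hd libraries were highest while the wild type range overlapped those of Del(i9-13) and Del(i9-13):Hoxb13hd. Of 17 presomitic mesoderm and segmentation genes 14 were positive, with a median of 0.28.

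Of 18 host genes of small nucleolar RNAs 16 were positive, with a median of 0.43 and sums of 653 to 690 CPM in Del(i9-13), 610 to 678 CPM in wild type, 474 to 541 CPM in Del(i9-13):Hoxb13hd and 657 to 771 CPM in Hoxb13hd. The double mutant libraries lay below the other 9. Of 24 sterol synthesis genes 21 were negative, with a median of -0.18, and of 13 heart muscle markers 12 were negative, with a median of -0.74. Heart marker sums were 229 to 486 CPM in Del(i9-13), 217 to 1830 CPM in wild type, 140 to 272 CPM in Del(i9-13):Hoxb13hd and 76.8 to 614 CPM in Hoxb13hd, so that the groups overlapped. No member of these 3 lists was called. Other lists without a call also leaned to 1 sign, with 11 of 12 blood markers positive and 12 of 14 endothelium markers negative. Liver bud and endoderm markers were mixed, with 8 positive and 9 negative.

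At E9.5 the series holds Del(i9-13) and wild type without hd, in poly(A)-enriched libraries, whereas the E10.5 ones were ribo-depleted. These 6 libraries took no part in the choice of genes. The E9.5 libraries of the groups did not overlap for 19 of the 90 genes (21.1%), 10 higher and 9 lower in Del(i9-13), against 18% of all genes tested. In 15 of the 19 the E9.5 direction was that of the deletion effect without hd at E10.5. No matching share over all genes tested was computed, so the 15 are a description. Of the 15, 5 were low in Hoxb13hd alone, a class in which 0 deletion effects without hd were called. For the 27 genes crossed with Del(i9-13) and Hoxb13hd high, the E9.5 groups did not overlap in 2 (7.41%), and for the 16 low in Hoxb13hd they did not in 7 (43.8%). For the 4 genes high in wild type alone they did not in 2, both lower in Del(i9-13) at E9.5 as at E10.5. Crossed genes flagged below varied widely within E9.5 wild type. Pop4 had 55.04, 77.35 and 29.12 CPM there, against 74.44, 92.87 and 73.85 CPM in E9.5 Del(i9-13). Eif3j2 had 11.07, 1.068 and 23.9 CPM in E9.5 wild type, against 11.32, 13.83 and 12.79 CPM in E9.5 Del(i9-13). Gchfr had 1.827, 0.8012 and 2.542 CPM in E9.5 wild type, and H4f16 0.0843, 0.401 and 0.495 CPM. Hfm1, low in Del(i9-13) alone at E10.5, had 0.1124, 0.1335 and 1.585 CPM in E9.5 wild type. Its levels in E9.5 Del(i9-13) were 1.692, 0.06634 and 0.9766 CPM. The cause of this spread was not tested.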

How the data were processed

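RNA was sequenced from headless mouse embryos with stranded kits, ribo-depleted at E10.5 and poly(A)-enriched at E9.5, per the labels' protocols. The submitters' processing notes name cutadapt 1.18, STAR 2.7.10a, Cufflinks 2.2.1 and the build mm10. The authors deposited raw read counts per gene, and FPKM values (fragments per kilobase and per M mapped fragments). The sources used here do not name the counting program, its strand setting or its annotation. Coordinates come from the deposited FPKM table, and gene types and transcripts from GENCODE M21. With 19.3 to 25.7 M counts a library, the spread between libraries limits the precision of well-expressed genes, and 1 CPM stands for about 20 counts.

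Counts of the 12 E10.5 libraries were fitted in R 4.3.3 with edgeR 4.0.16 (robust quasi-likelihood test, TMM, filterByExpr with minimum count 10 and total 15), with Benjamini-Hochberg adjustment over all genes and calls at 0.05. Every adjusted p in the text without another tool's name comes from this test. The fit was tested on simulated data. Copies were matched with blastn. Named genes were the 6 Hox-region genes, up to 15 called genes in each direction by size (mean CPM of at least 1 in a group, a name of their own, no pseudogenes or sex-linked genes), up to 5 per class by adjusted p, called list members and genes in runs of 3 or more. Other settings tried were no filter, a filter of 1 CPM, RLE scaling, DESeq2 1.42.0, limma 3.58.1 on log2 FPKM with pseudocounts 0.1 and 1, a minimum log2 of 1, a replicate block, Xist as covariate, other class settings and leaving out each library. The comparison, the lists and the naming rule were chosen with earlier results of these data known. A few genes that fall under the rule are not reported here.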

Additional observations from a re-analysis of the deposited data

Results flagged for a closer look

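The deletion effect differed between embryos with and without hd for 90 genes by the interaction test. Of these, 13 were called in both deletion effects with opposite direction, and 5 of the 13 fell under the naming rule. Pop4 had an interaction of 2.55 ± 0.15 (SE; adjusted p = 1.28e-06), H4f16 of 2.5 ± 0.21 (SE; adjusted p = 6.85e-05) and Gchfr of 3.41 ± 0.48 (SE; adjusted p = 0.00591). Eif3j2 had 12.12 ± 0.56 (SE; adjusted p = 1.05e-07), on levels near 0 in wild type and Del(i9-13):Hoxb13hd. It is 99.4% identical to Eif3j1, so its counts are uncertain, and the sum of the pair was not called, at -0.40 (adjusted p = 0.227). Banp had -0.74 ± 0.10 (SE; adjusted p = 0.00252), with wild type highest and Hoxb13hd lowest. All 5 were called in each of the 12 fits that left out 1 library. No test for single outlying libraries was run in groups of 3.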

How the results depend on the processing

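Numbers of calls depended on the tool, the filter and single libraries. Without a filter 73 genes were called lower in the interaction, and 329 for the deletion effect with hd. DESeq2 called 287 in the interaction (99 higher and 188 lower), 266 for the deletion effect without hd and 644 with hd. On log2 FPKM, limma called 28 higher with a pseudocount of 0.1 and 25 with 1, and without a filter 47 in all, 18 of them lower, and 45 for the effect with hd. With a minimum log2 of 1, 30 were called lower, and 43 and 70 genes for the effects without and with hd. With Xist as covariate 26 were called lower. With copies summed, 29 were called in the interaction, 12 higher and 17 lower, and 55 for the effect without hd. Genes with a name of their own gave 25 higher calls. Leaving out 1 library at a time gave 40 to 174 interaction calls, 22 to 78 higher and 18 to 96 lower, 40 to 285 for the effect without hd and 36 to 412 with hd. The cause of these shifts was not tested. RLE scaling gave 92 interaction calls and a filter of 1 CPM 85.

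Replicate numbers did not pair the libraries, with correlations of -0.255 to 0.184 for equal numbers and -0.267 to 0.255 for different ones. A replicate block gave 66 interaction calls, 59 of them among the 90, 35 higher and 31 lower.

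With a gap of 2 times the range, Hoxb13hd alone set 11 genes and 20 had no class. Of 56 named called genes 16 held in every leave-one-out fit and 0 reversed. Of all 90 calls 33 held, namely 19 of 40 crossed, 5 of 10 set by Del(i9-13), 5 of 12 by wild type, 0 of 3 by Del(i9-13):Hoxb13hd, 4 of 18 by Hoxb13hd and 0 of 7 without a class. Uncalled Hox genes changed sign. Hoxd13 was -0.02 on log2 FPKM with a pseudocount of 0.1, with and without the filter, and ran from -0.17 (without Del(i9-13) replicate 3) to 0.48 over the leave-one-out fits. Over those fits Hoxb9 ran from -0.12 to 0.07, with 0.02, 0.01 and 0.07 when wild type replicate 2, Del(i9-13) replicate 2 or Hoxb13hd replicate 1 was omitted. Hoxa13 ran from -0.69 to 0.32 and was positive when Del(i9-13) replicate 2 was omitted.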
